A study of Homo sapiens with 6 samples.

Results

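TXNIP, 4 other alpha-arrestin genes, the glucose-sensing transcription factor genes MLXIP and MLXIPL, and the thioredoxin gene TXN were followed in 22RV1 cells treated with the quassinoid bruceantin (BCT). These 8 genes were taken by symbol from the 26255 genes with a value in every sample. They were chosen by the level of TXNIP, which was much higher with BCT, so their own differences between BCT and DMSO are given below as a description and without a test. 22RV1 is an established human cell line of castration-resistant prostate cancer. Cells in medium with serum received either the DMSO vehicle (3 samples) or 10 nM BCT (3 samples) for 24 h, and total RNA was made into TruSeq libraries. The line is a single cell line, and the labels number the samples without saying whether they came from separate cultures, so every error and p-value below measures the spread between these samples, which may be technical.

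The alpha-arrestins are adaptor proteins that recruit ubiquitin ligases of the NEDD4 family to membrane proteins and send these to endosomes. TXNIP, the best known of them, binds reduced thioredoxin and inhibits it, and it lowers glucose uptake by driving glucose transporters off the cell surface. MLXIP encodes MondoA, which pairs with MLX, responds to phosphorylated glucose and binds carbohydrate response elements. TXNIP and ARRDC4 are its classical targets, and MLXIPL encodes the related factor ChREBP, known mainly from liver. Thioredoxin, the product of TXN, is the small redox protein that reduces disulfides and peroxiredoxins.

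The promoters of TXNIP, ARRDC4 and ARRDC3, the members with the highest levels with BCT relative to DMSO, are shown because a carbohydrate response element in such a window is the site through which MondoA is known to act. Each stretch holds 250 bases before and 50 bases after a transcript start in RefSeq on GRCh38.p14, read 5′ to 3′ along the gene. Capitals mark matches to the 4 motifs searched on both strands, namely a carbohydrate response pair (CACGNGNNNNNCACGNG), the E-box CACGTG, the CCAAT box CCAAT and the forkhead motif GTAAACA, so that a match on the opposite strand reads ATTGG or TGTTTAC. The TXNIP window, from the first of its annotated starts, lies at chr1:145996530-145996829 on the minus strand of that build. That of ARRDC4 lies at chr15:97960453-97960752 on the plus strand. That of ARRDC3, from the second of its annotated starts, lies at chr5:91380048-91380347 on the minus strand. Not printed are the window of the second TXNIP start, which held no match, and that of the first ARRDC3 start, which held a CCAAT box.
TXNIP: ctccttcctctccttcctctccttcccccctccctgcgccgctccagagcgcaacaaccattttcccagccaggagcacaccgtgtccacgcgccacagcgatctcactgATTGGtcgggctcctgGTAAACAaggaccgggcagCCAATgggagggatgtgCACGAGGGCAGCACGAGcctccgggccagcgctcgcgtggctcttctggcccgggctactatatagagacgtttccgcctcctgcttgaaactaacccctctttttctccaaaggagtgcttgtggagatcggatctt
ARRDC4: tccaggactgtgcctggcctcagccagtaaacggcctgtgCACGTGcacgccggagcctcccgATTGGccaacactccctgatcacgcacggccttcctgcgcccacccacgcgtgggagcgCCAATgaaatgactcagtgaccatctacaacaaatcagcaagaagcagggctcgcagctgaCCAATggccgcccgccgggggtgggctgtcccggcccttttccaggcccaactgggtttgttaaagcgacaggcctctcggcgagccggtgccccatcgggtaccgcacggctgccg
ARRDC3: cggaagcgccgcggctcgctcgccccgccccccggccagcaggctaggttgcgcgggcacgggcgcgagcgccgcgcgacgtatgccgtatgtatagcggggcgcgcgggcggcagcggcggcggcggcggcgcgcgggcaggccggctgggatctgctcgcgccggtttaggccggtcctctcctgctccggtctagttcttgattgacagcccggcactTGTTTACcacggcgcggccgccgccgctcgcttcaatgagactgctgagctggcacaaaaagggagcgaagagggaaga

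All 8 members had a promoter window in RefSeq, 11 windows in all. The carbohydrate response pair, a tandem of E-box-like elements separated by 5 bases, matched 1 of the 11. This was the first TXNIP window, from 88 to 72 bases before the start. Of 35116 windows of that length, 20 held it, or 0.057%. Only this spelling of the pair was searched. Neither that share nor the lack of a match in ARRDC4 therefore covers carbohydrate response elements with other letters. The same TXNIP window held CCAAT boxes on both sides of a forkhead motif that lay 124 to 118 bases before the start. The ARRDC4 window held 1 E-box, 210 to 205 bases before the start, and 3 CCAAT boxes. CCAAT boxes also lay in windows of ARRDC1, ARRDC2, MLXIP and the first start of ARRDC3, which made 6 of the 11 windows. In ARRDC3 the forkhead motif lay on the opposite strand, 29 to 23 bases before the second start. The E-box was in 7.26% of all windows, the CCAAT box in 34.6% and the forkhead motif in 3.42%. The motifs were chosen with these sequences in view, and a match is a description of letters and not of a bound site. The E-box overlaps the pair only where an element of the pair reads CACGTG, which was not the case in the TXNIP window.

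**Figure D1:**
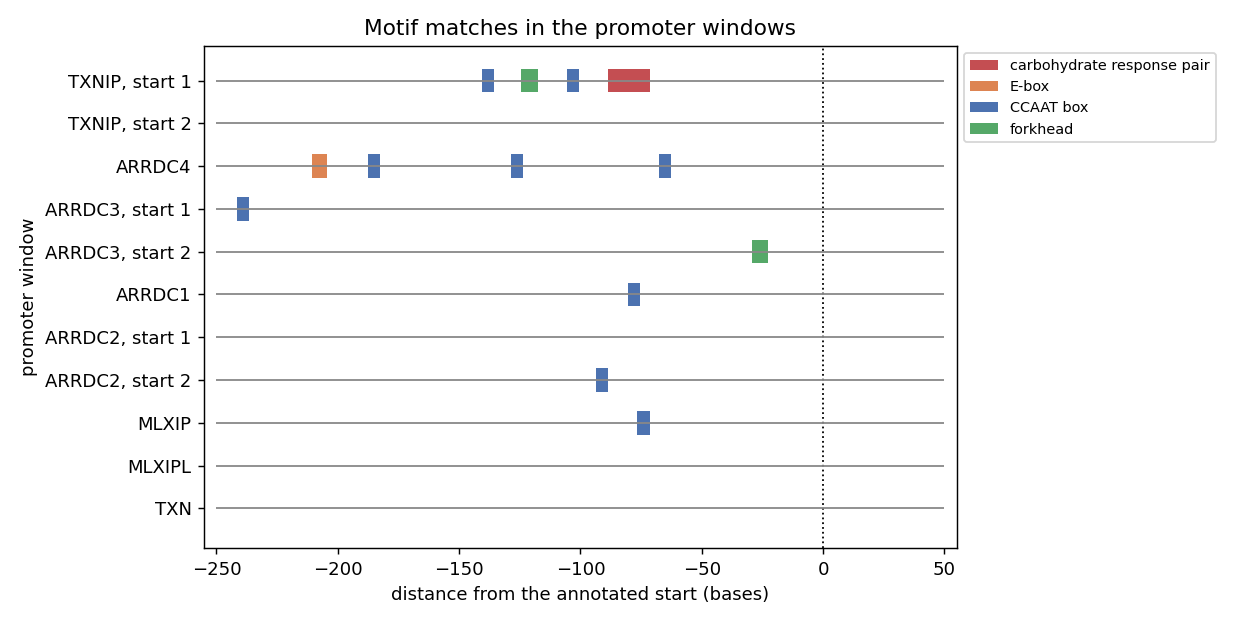
Matches to the 4 motifs in the 11 promoter windows of the 8 genes, by distance in bases from the annotated start (dotted line). Each coloured block is a match on either strand, and the carbohydrate response pair appears only in the first TXNIP window, 88 to 72 bases before the start.

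FPKM, fragments scaled to transcript length and to the mapped reads of a sample, is a level per length, so levels of different genes can be set side by side, but it holds no read counts, and depth is known only as a ratio. Among low values (0.02 to 0.15 FPKM), relative depth was 0.883 to 1 in the DMSO samples and 1.06 to 1.13 in the BCT samples. The sum of FPKM was 1169649 to 1572321 with DMSO and 757534 to 799838 with BCT, and the single gene MIR6087 took 43.5% to 55.3% and 31.7% to 32.5% of it. Values were used as deposited, and differences are of log2(FPKM + 0.1), which understates the difference of low genes. FPKM is a share of the mapped reads, so less RNA per cell and fewer cells cannot be told apart. BCT replicate 1 lay nearer to the DMSO samples than the other BCT samples did (first principal component 40.2, against 65.0 and 63.8). All 8 prostate cancer line markers checked were present, with a summed level of 798 to 803 FPKM with DMSO and 1777 to 1954 with BCT. The 12 stromal, immune and endothelial markers summed to 5.10 to 6.16 and 12.2 to 15.7 FPKM, and 8 of them stayed below a mean of 0.1 FPKM in each group. COL1A1 and CD68 carried most of that sum, while the defining markers PTPRC and CDH5 were at or near 0 in every sample.

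The 3 DMSO samples held 130.4, 127 and 118 FPKM of TXNIP, and the 3 BCT samples held 1217, 1696 and 1617 FPKM. Every BCT sample lay far above every DMSO sample, and BCT replicate 1 was the lowest of the BCT samples. The mean was 125 ± 6.68 FPKM with DMSO and 1510.0 ± 257 FPKM with BCT (SD, n = 3 each), a ratio of 12.1 and a log2 difference of 3.58 (standard error 0.12). Among all 26255 genes, TXNIP moved from rank 717 to 803 by level with DMSO to rank 28 to 58 with BCT. It held position 61 of the 12729 tested genes when these were ordered from the highest log2 difference down.

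In GENCODE on hg19, where this region is inverted relative to GRCh38, TXNIP lies on the plus strand at chr1:145438490-145442635, whereas the deposited file lists it with chr1:144146811-146467744, a merged span shared by 35 genes. Of the 34 other genes in that span, 17 had a mean of at least 1 FPKM. By the rule given below, 4 of the 17 were called higher and 1 lower, set beside 13.9% and 17.8% of all tested genes. The log2 differences of the 17 genes ran from -0.85 to 1.89, with a median of 0.34. The value of TXNIP thus lay above that of every tested gene listed with it. NUDT17, chosen here after its value was seen, was the highest of them, at 5.82 ± 0.327 FPKM with DMSO and 21.9 ± 1.57 with BCT.

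ARRDC4, a further adaptor for ubiquitin ligases, was at 6.01, 6.97 and 6.37 FPKM with DMSO. It was at 57.3, 92.6 and 91.5 FPKM with BCT, again with no overlap and with BCT replicate 1 lowest. The means were 6.45 ± 0.483 and 80.5 ± 20.1 FPKM (SD, n = 3 each), a ratio of 12.5 and a log2 difference of 3.59 (standard error 0.17). ARRDC4 lies at chr15:98503933-98517063 on hg19. Although TXNIP was far more abundant, its level divided by that of ARRDC4 was nearly the same in both groups, 19.5 ± 1.93 with DMSO and 19.1 ± 1.90 with BCT, with ranges of 18.3 to 21.7 and 17.7 to 21.2.

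ARRDC3, which has been tied to the sorting of beta-adrenergic receptors and integrins, was measured at 7.35, 6.45 and 6.19 FPKM in DMSO samples and at 30.3, 40.1 and 37.9 FPKM in BCT samples. The BCT samples all lay above the DMSO samples, by a smaller ratio than those of TXNIP and ARRDC4. The means were 6.66 ± 0.610 and 36.1 ± 5.14 FPKM, a ratio of 5.42 and a log2 difference of 2.41 (standard error 0.11). TXNIP divided by ARRDC3 accordingly stood at 18.8 ± 1.01 with DMSO and 41.7 ± 1.36 with BCT. On hg19 the gene lies at chr5:90664448-90679134 on the minus strand and overlaps its antisense gene ARRDC3-AS1 over 2969 bases. The TruSeq v2 kit does not mark strand, so reads in that overlap cannot be assigned. ARRDC3-AS1 was listed at 0.289 ± 0.0653 FPKM with DMSO and 0.475 ± 0.0747 with BCT.

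ARRDC1, which drives the budding of small vesicles from the plasma membrane, was lower in the BCT samples, with 40.2, 41.8 and 43.3 FPKM in DMSO samples and 31.7, 22.1 and 20.8 FPKM after BCT. The groups did not overlap, but BCT replicate 1 lay well above the other BCT samples. The means were 41.8 ± 1.51 and 24.9 ± 5.91 FPKM, a log2 difference of -0.77 (standard error 0.14), or -0.956 without BCT replicate 1. ARRDC1 lies at chr9:140500137-140509812 and shares only 35 bases with ARRDC1-AS1, which was at 10.2 ± 0.306 and 8.61 ± 0.649 FPKM.

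ARRDC2, also an alpha-arrestin adaptor, had levels of 12.8, 12.8 and 13.5 FPKM in DMSO samples against 13.9, 16.8 and 15.6 FPKM in BCT samples. The BCT samples were above the DMSO samples by a narrow margin, with a log2 difference of 0.24 (standard error 0.074). It lies at chr19:18111941-18124911. The summed level of the 5 alpha-arrestins was 187 to 197 FPKM with DMSO and 1350.0 to 1867 FPKM with BCT, and TXNIP made up 62.9% to 66.3% and 90.1% to 90.8% of it. ARRDC5, a further alpha-arrestin that is not among the 8 genes, was listed at 0 in all 6 samples.

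**Figure D2:**
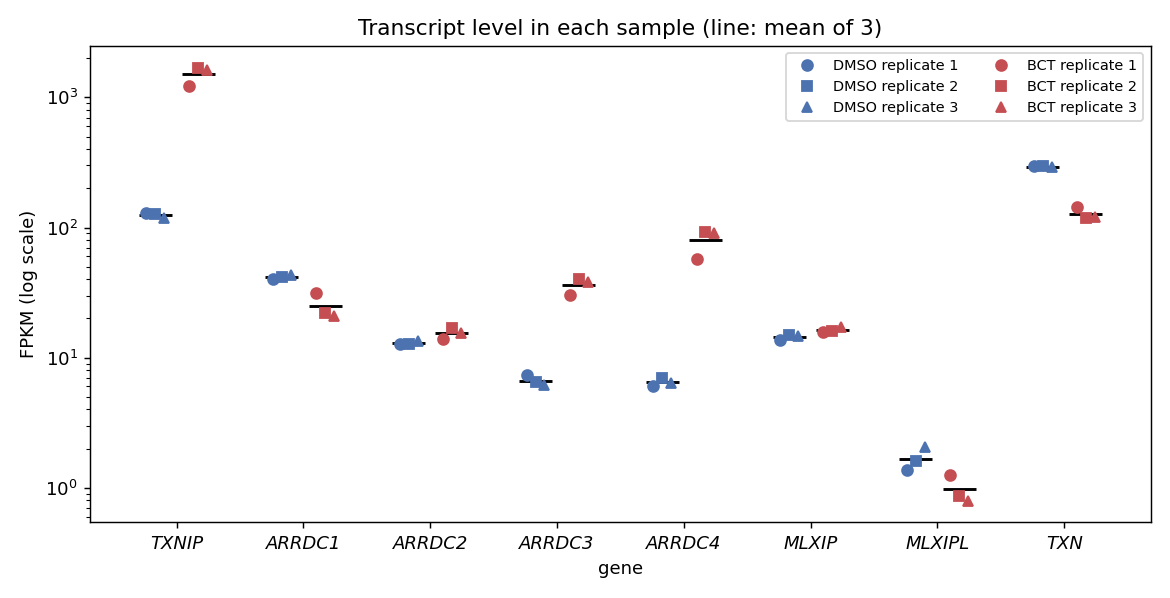
FPKM of the 8 genes in each of the 6 samples on a log axis, with DMSO in blue, BCT in red, a symbol for each replicate and a line at the mean of 3. TXNIP, ARRDC3 and ARRDC4 are higher in all BCT samples, TXN, ARRDC1 and MLXIPL are lower in all BCT samples, and ARRDC2 and MLXIP lie just above their DMSO levels.

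MLXIP, the MondoA gene, was close in level between the groups as deposited. Its DMSO samples stood at 13.8, 15.005 and 14.7 FPKM and its BCT samples at 15.7, 16.1 and 17.2 FPKM, with a log2 difference of 0.17 (standard error 0.060). The lowest BCT sample lay just above the highest DMSO sample. MLXIP lies at chr12:122516628-122631894. Its partner gene MLX was at 34.8 ± 1.26 and 43.6 ± 0.549 FPKM, a log2 difference of 0.33 that passed the FDR but not the fold change threshold (adjusted p = 0.00027, limma). MLXIP thus stood at 0.417 ± 0.0257 times the level of MLX with DMSO and at 0.375 ± 0.0162 times with BCT.

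MLXIPL, the ChREBP gene, was the lowest of the 8 genes in both groups. Its DMSO samples stood at 1.38, 1.601 and 2.05 FPKM and its BCT samples at 1.26, 0.860 and 0.796 FPKM, and BCT replicate 1 lay just below the lowest DMSO sample. The means were 1.68 ± 0.340 and 0.971 ± 0.250 FPKM, and the log2 difference was -0.74 (standard error 0.21), or -0.919 without BCT replicate 1. MLXIPL lies at chr7:73007524-73038873. In every sample MLXIP was the more abundant of the pair, by 7.18 to 9.99 times with DMSO and 12.5 to 21.6 times with BCT.

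TXN was lower with BCT, with 295, 296 and 292 FPKM in the DMSO samples and 143, 119 and 121 FPKM in the BCT samples. The groups lay far apart, and BCT replicate 1 was the highest of them. The means were 294 ± 1.85 and 128 ± 13.7 FPKM, and the log2 difference was -1.21 (standard error 0.074). TXN lies at chr9:113006090-113018787 on the minus strand. The ratio of TXNIP to TXN transcripts within a sample was 0.402 to 0.442 with DMSO and 8.48 to 14.3 with BCT, so the order of the pair turned over. These are ratios of transcripts, and protein was not measured in these files.

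By level with DMSO the order was TXN, TXNIP, ARRDC1, MLXIP, ARRDC2, ARRDC3, ARRDC4 and MLXIPL, in which only ARRDC3 and ARRDC4 overlapped as neighbors. With BCT the order was TXNIP, TXN, ARRDC4, ARRDC3, ARRDC1, MLXIP, ARRDC2 and MLXIPL. Here the samples of ARRDC3 and ARRDC1 overlapped, as did those of MLXIP and ARRDC2. In all 8 genes BCT replicate 1 was the BCT sample nearest to the DMSO mean, as it was in 73.6% of the 10854 tested genes whose groups did not overlap. What BCT replicate 1 has in common with the DMSO samples was not tested.

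**Figure D3:**
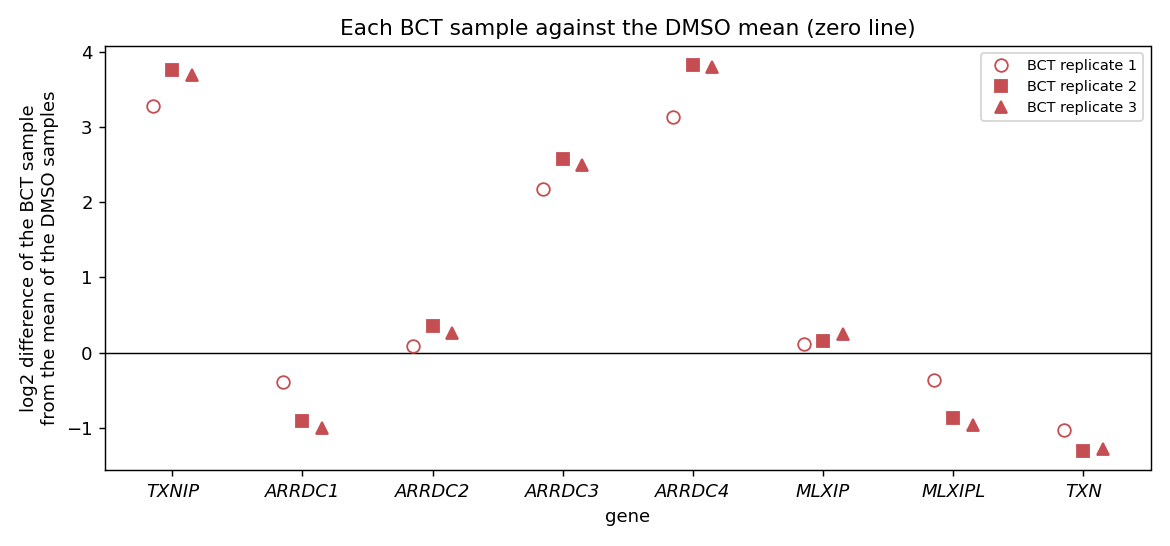
Log2 difference of each BCT sample from the mean of the 3 DMSO samples for the 8 genes, on log2(FPKM + 0.1), with the zero line at the DMSO mean. The open circle of BCT replicate 1 is nearest to zero in all 8 genes, for example 3.28 against 3.76 and 3.69 for TXNIP.

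All 8 genes passed the filter on low values, a mean of 1 FPKM or more, which kept 12729 genes. A gene was called at an absolute log2 difference above 0.85 and an FDR below 0.05 in a limma fit over all of these. By that rule TXNIP, ARRDC3 and ARRDC4 were called higher and TXN was called lower, 4 of the 8, whereas 31.6% of all tested genes were called, 13.9% higher and 17.8% lower. DMSO and BCT samples were fully separated in 8 of 8 genes, and in 85.3% of all tested genes. Because this contrast chose the genes, nothing is read from those counts. Without BCT replicate 1, ARRDC1 and MLXIPL were called lower as well. Without DMSO replicate 1, MLXIPL was called at -0.86. With samples rescaled to equal FPKM sums, which raised the median log2 difference of all genes from -0.038 to 0.719, the log2 difference of TXNIP was 4.35, that of TXN was -0.44 and no longer called, and those of ARRDC1 and MLXIPL were -0.0039 and -0.028. ARRDC2 and MLXIP were then called higher, at 0.998 and 0.936. In that fit 5609 of the 12729 tested genes were called higher and 668 lower. With the overall median subtracted in that scaling, TXNIP stood at 3.63 and TXN at -1.16, against 3.62 and -1.17 as deposited.

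**Figure D4:**
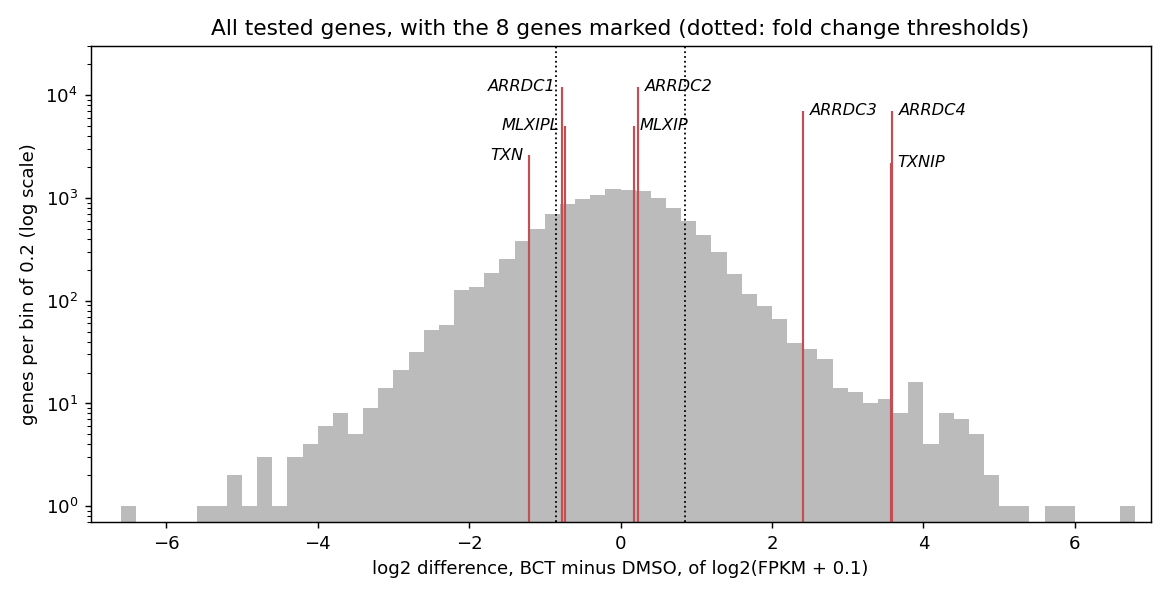
Distribution of the log2 difference (BCT minus DMSO, bins of 0.2, log count axis) over the 12729 tested genes, with red lines at the 8 genes and dotted lines at the thresholds of 0.85 in each direction. TXNIP at 3.58, ARRDC4 at 3.59 and ARRDC3 at 2.41 lie in the upper tail, and the other genes lie between -1.21 and 0.24.

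The tested genes whose profile over the 6 samples was most like that of TXNIP were JUN, ARC, ARRDC4, PPP1R15A and LINC01511. Likeness was the Euclidean distance between values of log2(FPKM + 0.1) after subtraction of each gene's DMSO mean, and it was 0.229, 0.23, 0.279, 0.299 and 0.331 for these genes. The Pearson correlation over the 6 samples was at least 0.997 for each of them, but it reflects mainly the separation of the treatments and is given without a test. ARRDC3 held position 121 in this order, although its correlation with TXNIP was 0.999. The distance also counts the size of the difference, which was smaller in ARRDC3. JUN was at 20.1 ± 0.585 FPKM with DMSO and 229 ± 33.4 with BCT, PPP1R15A at 17.6 ± 0.819 and 197 ± 41.9, and ARC at only 0.867 ± 0.0199 and 11.6 ± 2.86.

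Lists of related genes were described by the number called in the same fit, set beside 31.6% over all genes, and by their median, set beside -0.038. Those 2 comparators hold only as deposited. With equal FPKM sums, 5609 of the 12729 tested genes were called higher and 668 lower, and without MIR6087 3369 and 1208. Every count after such rescaling below is to be set beside these, since a turn toward higher calls was shared by the tested genes at large. The list of Mlx and Mxd partners holds 8 genes, MLX itself and MAX among them. As deposited, 4 were called lower and 0 higher, with a median of -0.80. After rescaling to equal FPKM sums, 3 were called higher, MLX at 1.09 among them, and 0 lower. MXD4, MXD3 and MXI1, which encode repressors that pair with MAX, fell by 1.22, 1.16 and 1.13 on the log2 scale (adjusted p = 1.6e-05, 9.0e-06 and 1.1e-06, limma). MXD3, the most abundant, was at 42.9 ± 3.99 FPKM with DMSO and 19.2 ± 2.21 with BCT. MAX and MGA, at -0.57 and 0.48, stayed within the fold change threshold. After rescaling to equal sums without MIR6087, 1 of the 8 genes was called, in the upward direction, and MXD4, MXD3 and MXI1 were no longer called.

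Genes known as carbohydrate-response targets of MondoA or ChREBP moved both ways. Of 13 tested genes out of 18 listed, 2 were called higher and 6 lower, with a median of -0.81, and with equal FPKM sums 3 were called higher and 4 lower. KLF10, a zinc finger repressor gene induced by glucose, rose from 12.4 ± 1.15 to 74.7 ± 16.3 FPKM, a log2 difference of 2.56 (adjusted p = 1.8e-06, limma). PDK4, which encodes a kinase that restrains pyruvate oxidation, was also called higher, at 1.49. SCD, the gene of a fatty acid desaturase, fell from 327 ± 30.3 to 25.3 ± 7.25 FPKM, a log2 difference of -3.72. KHK, which phosphorylates fructose, fell from 5.79 ± 0.422 to 1.07 ± 0.218 FPKM, a log2 difference of -2.35. FASN, ACACA, ACLY and HK2 made up the rest of the genes called lower. SCD, FASN, ACACA and ACLY are also controlled by sterol regulatory element-binding proteins, as general knowledge. PKLR, G6PC, GPD1 and THRSP, typical of liver, did not reach a mean of 1 FPKM and were not tested.

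Glucose entry and phosphorylation genes were lower as far as they were called. Of 11 tested genes out of 17, 6 were called lower and 0 higher, with a median of -1.22. SLC2A1, the gene of the basal glucose transporter GLUT1 whose protein TXNIP is known to clear from the cell surface, stood at 21.6, 17.5 and 22.0 FPKM in DMSO samples, against 10.2, 7.48 and 6.89 FPKM after BCT. It fell by 1.32 on the log2 scale (standard error 0.15, adjusted p = 5.0e-05, limma), with no overlap between the groups. After rescaling to equal FPKM sums SLC2A1 was at -0.55 and not called, and with equal sums without MIR6087 at -0.93 and called. HK2, a hexokinase of tumor cells, fell from 17.9 ± 1.17 to 5.77 ± 1.72 FPKM, a log2 difference of -1.65 (adjusted p = 3.2e-05, limma). SLC2A12, a further glucose transporter gene, had a log2 difference of -1.50. GPI, which encodes the isomerase of an early step of glycolysis, was at -1.22. HK1 was the exception among the abundant genes, at 52.8 ± 2.77 FPKM with DMSO and 50.8 ± 4.16 with BCT. Only 1 gene of this list was called, lower, after rescaling to equal FPKM sums. Equal sums without MIR6087 gave 5 lower and 0 higher, and the median of ratios and quantile normalization each gave 6 lower and 0 higher.

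In the thioredoxin and peroxiredoxin system, 6 of 18 genes were called lower and 0 higher as deposited, with a median of -0.44. This split turned with the scaling, to 4 higher and 1 lower with equal FPKM sums and to 2 higher and 4 lower with equal sums without MIR6087. PRDX3, the mitochondrial peroxiredoxin, fell from 312 ± 15.01 to 82.5 ± 6.34 FPKM, a log2 difference of -1.92 (adjusted p = 3.3e-07, limma). GLRX and GLRX5, which encode glutaredoxins, had log2 differences of -1.59 and -1.39, and of -0.84 and -0.63, not called, with equal FPKM sums. PRDX1, PRDX4 and PRDX6 were the other genes called lower. TXNRD1, the cytosolic reductase that recycles thioredoxin, was at 98.8 ± 4.15 FPKM with DMSO and 139.9 ± 8.18 with BCT, a log2 difference of 0.50 that did not reach the threshold, and TXN therefore stood at 2.98 ± 0.110 and 0.917 ± 0.127 times the level of TXNRD1. TXNRD1 was called higher with either rescaling to equal sums. TXN2, mitochondrial thioredoxin, was at -0.36 on the log2 scale.

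Among NEDD4-family ligases and their adaptors, which the arrestins recruit, 1 of 9 tested genes was called, and 5 were called higher with equal FPKM sums. ITCH, a ligase known to ubiquitinate TXNIP, rose from 12.7 ± 0.587 to 26.7 ± 2.08 FPKM, a log2 difference of 1.07 (adjusted p = 2.6e-06, limma). NEDD4L was at 10.9 ± 0.842 and 19.6 ± 0.554 FPKM and lay at the threshold, with a log2 difference of 0.85. It was called without DMSO replicate 2 or without BCT replicate 1, at 0.90 and 0.87. Of 5 tested genes with an arrestin fold, VPS26B, a retromer subunit gene, was called lower at -1.09 but not after either rescaling to equal sums, which gave 2 and 1 genes called higher in its place, while the beta-arrestin genes ARRB1 and ARRB2 were at 0.68 and -0.81 and were not called. Leaving out BCT replicate 2 brought the number called in this list to 2.

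Of 6 tested genes whose proteins bind TXNIP or thioredoxin, 3 were called higher, COPS5 and CDKN1B among them, and APEX1 was called lower. COPS5, a signalosome subunit, rose from 59.1 ± 2.42 to 140.9 ± 11.4 FPKM, and CDKN1B, the gene of the cell cycle inhibitor p27, rose from 92.0 ± 5.44 to 179 ± 2.83 FPKM. APEX1, a DNA repair and redox factor, fell from 185 ± 10.4 to 89.8 ± 4.57 FPKM, and this call was lost under both equal-sum rescalings and quantile normalization. MAP3K5, the stress kinase ASK1 that thioredoxin holds inactive, was at 5.89 ± 0.387 and 6.26 ± 0.193 FPKM (log2 difference 0.09, adjusted p = 0.26, limma). DDIT4, a stress-induced inhibitor of mTORC1 whose protein binds TXNIP, was at -0.52 with overlapping samples, and NLRP3 was at or near 0 in every sample. Of 17 regulators of energy and glucose stress, 6 were called higher and 2 lower as deposited, with a median of 0.58. The equal-sum scalings gave 13 higher and 0 lower, and 9 higher and 0 lower without MIR6087. Both lower calls were also lost with a pseudocount of 1 and without DMSO replicate 1. PRKAA2, a catalytic subunit of AMP-activated protein kinase, rose from 2.68 ± 0.0794 to 9.03 ± 1.08 FPKM, SESN2 from 9.52 ± 0.255 to 28.8 ± 2.22 FPKM and the forkhead factor gene FOXO1 from 1.63 ± 0.0567 to 4.32 ± 0.510 FPKM. Their log2 differences were 1.71, 1.59 and 1.35. PRKAB1, PRKAG1 and HSF1 were also called higher, whereas PRKAG2 and FOXO4 were called lower.

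**Figure D5:**
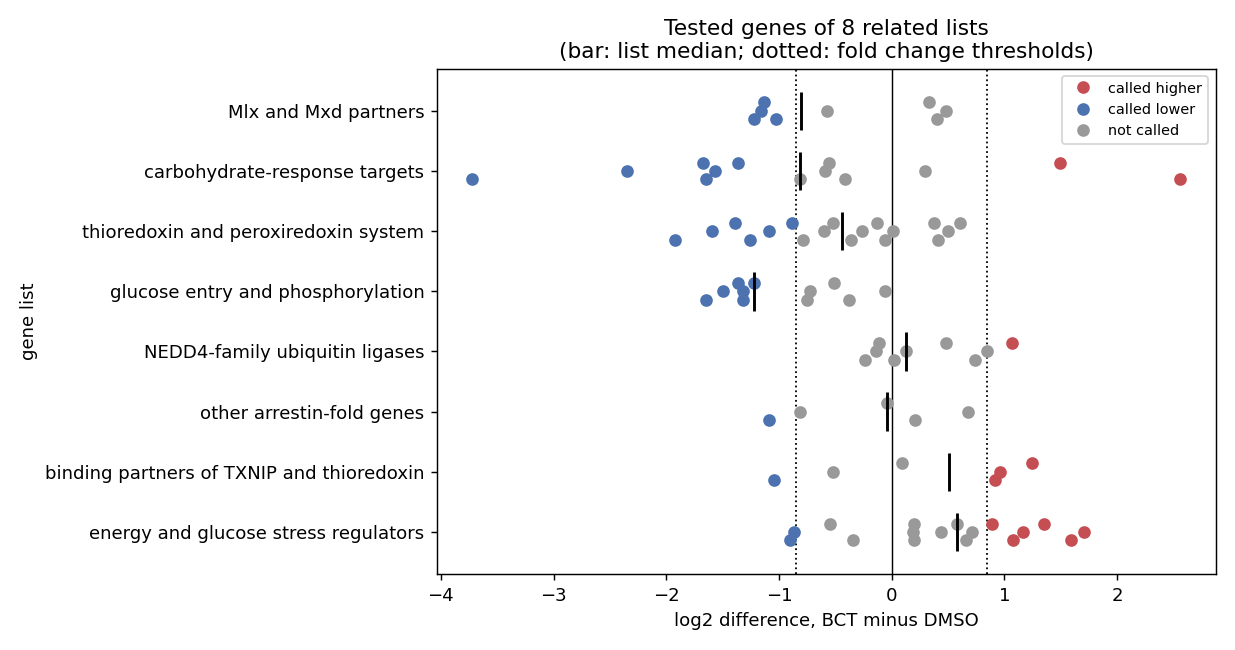
Log2 difference (BCT minus DMSO) of each tested gene in the 8 related lists, with red for called higher, blue for called lower, grey for not called, a bar at each list's median and dotted lines at 0.85 in each direction. The glucose entry list has the lowest median, -1.22, and the list of energy and glucose stress regulators the highest, 0.58.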

How the data were processed

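RNA-seq of 6 samples of 22RV1 cells was examined. The authors trimmed reads with Trimmomatic (0.38 per the labels), mapped them with HISAT2 on hg19, ran StringTie and deposited 1 FPKM value per gene and sample, although the labels name HTSeq. The gene annotation and the gene-level test are not given in the sources used here. Columns of position and description were used only for location, with 1 added to the start.

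Differences were taken from limma 3.58.1 (R 4.3.3, trended eBayes) on log2(FPKM + 0.1) for the 12729 genes averaging 1 FPKM or more, with Benjamini-Hochberg adjustment over all of them. In a self-test with known changes, limma called 191 of 200 genes given a log2 change of 1.5 and 1 of 12529 unchanged genes. Its simulated noise was independent between genes and samples. The self-test therefore does not cover a shift shared by the genes of a sample or the choice of scaling. No count test was run, as FPKM holds no counts, and an exact test of 3 against 3 samples was not used.

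The 8 genes and the related lists were chosen with earlier results of these data known. Genes named from the lists were some fixed ones and the 3 called genes with the largest difference in each list, and others were named to complete a count or a pathway step after their values were seen. Promoters are from RefSeq on GRCh38.p14 and were not set against hg19 positions. Alternatives covered the pseudocount, the filter, 4 scalings, the variance model, the FDR, the replicate block and each sample left out. Some genes of the lists are counted but not reported here by name.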

Additional observations from a re-analysis of the deposited data

How the results depend on the processing

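The sign of each of the 8 genes was kept under every alternative that was run. With equal FPKM sums, however, ARRDC1 and MLXIPL stood at -0.0039 and -0.028, so almost no difference was left there. Of 119 values, 101 lay within 1 SD of the deposited one. TXNIP was at 4.35 after rescaling to equal FPKM sums, at 3.97 after that rescaling without MIR6087 and at 4.05 after quantile normalization, and at 3.49 to 3.73 with a sample left out. The genes called higher numbered 2657 without a filter, 1150 at a mean of at least 5 FPKM, 5609 with equal sums and 3369 without MIR6087, and those called lower numbered 668 and 1208 under the last 2, where the median of all genes was 0.719 and 0.344. Lower genes made up 56.2% of the calls as deposited, 10.6% with equal sums and 26.4% without MIR6087. FPKM alone cannot tell these scalings apart.

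With equal sums the calls numbered 1, lower, for glucose entry and phosphorylation, and, all higher, 5 for NEDD4-family ligases, 2 for other arrestin-fold genes, 13 for energy and glucose stress regulators and 3 for the Mlx and Mxd partners. The thioredoxin system then had 4 higher and 1 lower. Without MIR6087 the partners had 1 and the ligases 4, all higher. The ligases also had 2 calls with a pseudocount of 0.01, without a filter and with the median of ratios, and 1 to 2 with a sample left out, as had the other arrestin-fold genes. The cause was not tested. TXN2 turned to 0.41 with equal sums and 0.02 without MIR6087, and DDIT4 to 0.25 with equal sums. Of 553 values for 31 named genes, 525 kept direction and side of the threshold, 16 lost the call and 9 gained it.

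The replicate numbers are shared between the groups by label only. Deviations of same-numbered samples correlated at 0.116, 0.033 and 0.034, and those of other-numbered samples at -0.115 to 0.074. These values do not settle whether samples were paired, and the main fit assumed no pairing. With the replicate block, 1767 genes were called higher and 2266 lower, and 4 of the 8 genes, as without it.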
